A study of Mus musculus with 12 samples.

Results

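The genes described here are 6 enzymes of cholesterol synthesis (Hmgcs1, Idi1, Fdft1, Sqle, Lss and Cyp51), the sterol sensor partner Insig1, and Srebf2, which encodes the transcription factor SREBP2. They were taken by gene symbol, and all 8 were found among the 15663 genes listed in RNA sequencing of mouse embryo hearts. The hearts came from C57/BL 6 embryos at embryonic day 9.5, with 3 libraries in each of 4 genotype groups, and every embryo carried the NkxCre driver and at least 1 floxed Asb2 allele. The control group was NkxCre.Asb2fl/+, the Asb2 cKO group (conditional knockout) NkxCre.Asb2fl/fl, the group labelled Flna-deleted NkxCre.Asb2fl/+.Flnafl/fl, and the double mutant group NkxCre.Asb2fl/fl.Flnafl/fl. ASB2 is the substrate subunit of a ubiquitin ligase for filamins, and Flna encodes filamin A, so the design asks what loss of Asb2 changes and whether the Flna alleles alter it. The series' design text counts the control and the Flna-labelled libraries as controls.

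Cholesterol is built from acetyl-CoA through mevalonate, isoprenoid units, squalene and lanosterol. SREBP2 is held in the endoplasmic reticulum by SCAP and the INSIG proteins while sterols are plentiful, and when sterols run low it is carried to the Golgi, cleaved, and enters the nucleus to switch on the genes of this route and of sterol uptake. Embryos need the route for growing membranes and for the sterol carried by hedgehog proteins, and the Insig1 transcript is itself a target of the factor.

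Before the members, the targeted genes were read as a check of the labels. Asb2 transcripts were 230.2 ± 54.1 CPM (the deposited unit, reads scaled by library depth, SD, n = 3) in the control and 119 ± 42.7 in the Asb2 cKO, a fall of 0.99 ± 0.26 on the log2 scale (SE, limma adjusted p = 0.0248). Flna transcripts were 986 ± 26.4 CPM in the Flna-labelled libraries and 589 ± 119 in the control, and 1057 ± 77.6 in the double mutant (0.86 ± 0.15 on the log2 scale against the control, limma adjusted p = 0.00255). The Flna label was therefore not borne out by a lower transcript level in either group that carries it. Asb2 transcripts were 145 ± 45.4 CPM in the Flna-labelled libraries (-0.68 ± 0.24 against the control, limma adjusted p = 0.334) and 132 ± 18.0 in the double mutant (-0.10 ± 0.21 against the Flna-labelled, limma adjusted p = 0.737). Neither targeted transcript thus separated these 2 groups, and directions drawn from either of them rest on the labels. NkxCre acts only in the cells that express it, and other cells of the dissected hearts keep both genes. All 12 libraries held high levels of the cardiomyocyte markers (summed over 8 genes, 16172 to 38816 CPM). Libraries held 25954539 to 42473118 reads in listed genes, and the member with the fewest reads in any library, Idi1, had 108. The tissue is bulk heart, in which fewer cells of a type and less RNA per cell cannot be told apart. Whether a group's libraries stem from different litters is not in the labels, and the p-values then cover only the spread among these libraries, which may be technical.

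Upstream sequences were read for 6 of the 8 genes from RefSeq windows on GRCm38.p6, each 300 bases long with 250 before the start of the gene. Sqle and Fdft1 are named only. The printed stretches are the first 200 bases of these windows and stop 50 bases short of the start, since annotations place the start differently. Hmgcs1 is shown because it holds the one match to the core of the sterol regulatory element, Insig1 for its E-box, Cyp51 because its level in the double mutant was 1.98-fold lower than in the control, and Lss because it was the enzyme among these genes that did not fall there. They lie at chr13:119690101-119690300 (plus strand), chr5:28071162-28071361 (plus strand), chr5:4104748-4104947 (minus strand) and chr10:76531355-76531554 (plus strand). Each reads 5′ to 3′ towards its gene, and capitals mark matches to the searched motifs on either strand.
Hmgcs1: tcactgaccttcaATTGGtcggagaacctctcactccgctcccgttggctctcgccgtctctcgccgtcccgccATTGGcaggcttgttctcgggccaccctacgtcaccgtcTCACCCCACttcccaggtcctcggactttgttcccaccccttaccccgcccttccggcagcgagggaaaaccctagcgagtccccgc
Insig1: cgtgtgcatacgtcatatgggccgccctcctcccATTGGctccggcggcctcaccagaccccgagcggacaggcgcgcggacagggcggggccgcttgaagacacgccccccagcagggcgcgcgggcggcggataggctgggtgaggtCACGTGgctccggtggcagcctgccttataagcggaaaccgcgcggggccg
Cyp51: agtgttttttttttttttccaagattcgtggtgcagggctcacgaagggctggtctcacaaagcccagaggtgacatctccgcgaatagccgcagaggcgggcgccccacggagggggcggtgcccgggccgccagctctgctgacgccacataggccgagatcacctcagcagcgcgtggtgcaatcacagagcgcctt
Lss: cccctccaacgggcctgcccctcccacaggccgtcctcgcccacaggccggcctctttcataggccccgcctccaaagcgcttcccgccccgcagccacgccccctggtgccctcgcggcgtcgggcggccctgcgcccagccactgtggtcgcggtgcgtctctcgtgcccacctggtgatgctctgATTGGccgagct
The motif TCACCCCAC, the core of the sterol regulatory element, was found in the Hmgcs1 window, on the sense strand from position -137 with the start at 0, and in 181 of all 32851 windows (0.551%). A looser form, TCACNCCAC, which includes the first, was found in 1.24% of windows and in no further member. CCAAT, the box bound by NF-Y, a factor that often works beside SREBP, was found in all 6 members' windows and in 37.4% of all windows, and in Cyp51 it lies within the bases next to the start that are not printed. CACGTG, the E-box, was found in the Insig1 window and in 7.15% of all windows. A match says only that these letters stand in the window.

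In the control hearts the members differed widely in level. Per kilobase of gene length as deposited, the means ran from 77.1 ± 3.71 CPM per kb for Hmgcs1 through 40.5 ± 5.69 for Srebf2, 34.9 ± 2.36 for Cyp51, 21.1 ± 0.96 for Fdft1, 13.2 ± 0.72 for Sqle, 10.7 ± 0.41 for Insig1 and 3.07 ± 0.34 for Idi1 to 2.55 ± 0.18 for Lss (SD, n = 3). Srebf2 and Cyp51 overlapped between libraries in this order, and the other neighbours did not. In each of the other groups the order was the same except that Lss stood above Idi1. In the double mutant Lss was at 2.48 ± 0.31 CPM per kb and Idi1 at 1.25 ± 0.08, without overlap. In the Asb2 cKO they were at 3.20 ± 0.46 and 1.94 ± 0.51, without overlap, and in the Flna-labelled group at 3.63 ± 0.61 and 2.99 ± 0.29, with overlap. Not divided by length, Lss was at 27.5 ± 1.99 CPM and Idi1 at 7.54 ± 0.85 in the controls. The order of Lss and Idi1 per kb therefore rests on the deposited lengths.

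The main difference was in the double mutant. Against the control, 6 of the 8 genes fell (limma on log2(CPM + 0.5), adjusted over all genes tested, threshold 0.05) and 0 rose, where 16.7% of all 14015 genes tested fell and 15.6% rose. The median log2 fold change of the members was -0.70, and that of all genes was 0.01. The double mutant libraries lay below all 3 controls for these 6, where 24.2% of all genes did. Against the Flna-labelled libraries all 8 fell, where 16.3% of 13954 genes fell and 15.1% rose, with a median of -0.96 against -0.02 for all genes. Both comparisons use the same double mutant libraries. The genes, and the lists read below, were chosen with earlier results of these data known. Their counts beside the shares of all genes are therefore descriptions. In the Asb2 cKO 1 member, Cyp51, passed against the control, where 10.9% of 14034 genes fell and 10.7% rose. Hmgcs1, Idi1 and Cyp51 lay below all controls in all 3 Asb2 cKO libraries, as 21.5% of all genes did, and Lss lay above them, as 20.0% did.

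**Figure D1:**
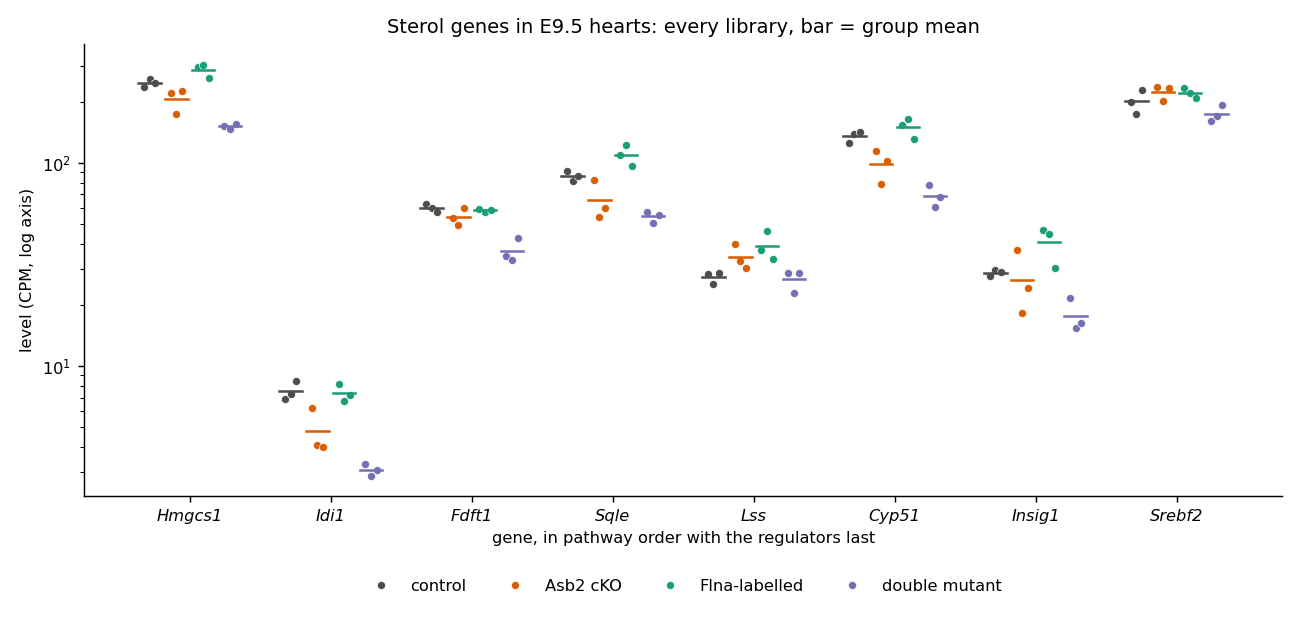
Level of each of the 8 genes in every library (points, CPM on a log axis) with the group mean (bar), by genotype group, n = 3 each. The double mutant points lie below all control points for 6 genes, and for Lss and Srebf2 they overlap them.

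Hmgcs1 (chr13:119690379-119708260, plus strand, GRCm38) encodes the cytosolic HMG-CoA synthase, the first committed enzyme of the route. Its level was 237, 261 and 247 CPM in the controls, 221, 174 and 226 in the Asb2 cKO, 297, 306 and 263 in the Flna-labelled and 153, 147 and 156 in the double mutant libraries. The double mutant libraries lay below all others, and the Flna-labelled above all others. The double mutant was 1.63-fold lower than the control (log2 fold change -0.71 ± 0.10, SE, limma adjusted p = 0.000708) and 1.89-fold lower than the Flna-labelled group (-0.92 ± 0.09, limma adjusted p = 0.000332). The Asb2 cKO differed from the control by -0.27 ± 0.14 (limma adjusted p = 0.182), without overlap of the libraries.

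Idi1 (chr13:8885501-8892451, plus strand) encodes isopentenyl diphosphate isomerase, which makes the starter unit for chain building. It had 6.85, 7.30 and 8.49 CPM in the controls, 6.22, 4.10 and 3.99 in the Asb2 cKO, 8.12, 6.70 and 7.24 in the Flna-labelled and 3.29, 2.88 and 3.07 in the double mutant libraries. It fell 2.24-fold in the double mutant against the control (-1.16 ± 0.21, limma adjusted p = 0.00277) and 2.19-fold against the Flna-labelled group (limma adjusted p = 0.00325). In the Asb2 cKO its value was -0.63 ± 0.25 with all 3 libraries below the controls, and the adjusted p was 0.0883 in limma.

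Fdft1 (chr14:63145150-63179578, minus strand) encodes squalene synthase, which commits isoprenoids to sterols. Its control values were 62.8, 60.1 and 57.3 CPM, its Asb2 cKO values 53.7, 49.6 and 59.9, its Flna-labelled values 59.5, 57.4 and 58.4 and its double mutant values 34.7, 33.2 and 42.6. The double mutant libraries stood apart from the other 9, while the other groups overlapped one another. The fall against the control was 1.63-fold (-0.71 ± 0.12, limma adjusted p = 0.00272), and the Asb2 cKO value was -0.14 ± 0.13 (limma adjusted p = 0.445).

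Sqle (chr15:59315077-59331192, plus strand) encodes squalene epoxidase, a rate-limiting step after squalene. It had 91.3, 81.8 and 86.8 CPM in the controls, 82.8, 54.0 and 60.3 in the Asb2 cKO, 110.1, 123 and 96.9 in the Flna-labelled and 57.7, 50.9 and 55.5 in the double mutant libraries. The double mutant values overlapped only those of the Asb2 cKO. They were 1.58-fold lower than the control (-0.66 ± 0.10, limma adjusted p = 0.0016) and 2.00-fold lower than the Flna-labelled group (SE 0.11 on the log2 scale, limma adjusted p = 0.000512). In the Asb2 cKO the value was -0.42 ± 0.16 (limma adjusted p = 0.0875).

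Lss (chr10:76531588-76557138, plus strand) encodes lanosterol synthase, which closes the sterol rings. Its values were 28.5, 25.2 and 28.9 CPM in the controls, 40.0, 33.1 and 30.4 in the Asb2 cKO, 37.2, 46.4 and 33.8 in the Flna-labelled and 28.6, 22.9 and 28.8 in the double mutant libraries. Control and double mutant libraries shared one range (-0.05 ± 0.14, limma adjusted p = 0.821), and both lay below the other 2 groups. Against the Flna-labelled group the double mutant was 1.45-fold lower (-0.54 ± 0.15, limma adjusted p = 0.0258), which did not pass without Flna-labelled replicate 1 (adjusted p = 0.0615), Flna-labelled replicate 2 (0.0909) or double mutant replicate 2 (0.0966).

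Cyp51 (chr5:4081145-4104746, minus strand) encodes lanosterol 14-alpha-demethylase, the next step. It had 126, 139.5 and 143 CPM in the controls, 115, 78.6 and 103 in the Asb2 cKO, 153, 165 and 131 in the Flna-labelled and 77.7, 60.7 and 67.7 in the double mutant libraries. The 3 genotypes control, Asb2 cKO and double mutant did not overlap, in that falling order. The double mutant was 1.98-fold lower than the control (-0.99 ± 0.12, limma adjusted p = 0.00038) and 2.17-fold lower than the Flna-labelled group (-1.12 ± 0.12, limma adjusted p = 0.000524). The Asb2 cKO was 1.39-fold lower than the control (-0.47 ± 0.15, limma adjusted p = 0.0491). That call did not hold by edgeR (adjusted p = 0.0561), with the replicate block (0.121) or without any 1 of 5 libraries (0.0762 to 0.133). Nor did it hold with a pseudocount of 0.1, no filter, or rescaling by the median of ratios or without hemoglobin genes. It was also lost in limma without trend and robust options. Leaving out Asb2 cKO replicate 1 kept it (0.0298).

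Insig1 (chr5:28071363-28078662, plus strand) encodes the protein that retains SCAP and SREBP2 when sterols are high. It had 27.7, 29.9 and 29.0 CPM in the controls, 37.4, 18.2 and 24.3 in the Asb2 cKO, 47.0, 44.8 and 30.3 in the Flna-labelled and 21.5, 15.3 and 16.3 in the double mutant libraries. The Asb2 cKO libraries lay on both sides of the controls, and their value of -0.17 ± 0.23 (limma adjusted p = 0.599) turned to 0.06 without Asb2 cKO replicate 2. In the double mutant the gene fell 1.63-fold against the control (-0.70 ± 0.15, limma adjusted p = 0.00716) and 2.24-fold against the Flna-labelled group (-1.17 ± 0.20, limma adjusted p = 0.00349).

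Srebf2 (chr15:82147181-82205379, plus strand) is the gene of the factor itself. Its values were 200.2, 174 and 230.1 CPM in the controls, 237, 202 and 235 in the Asb2 cKO, 233, 220.3 and 208 in the Flna-labelled and 160.2, 171 and 194 in the double mutant libraries. The double mutant overlapped the control (-0.20 ± 0.13, limma adjusted p = 0.26) and lay below both other groups. Against the Flna-labelled group it was 1.26-fold lower (-0.34 ± 0.10, limma adjusted p = 0.0297), which did not hold in the joint fit of the 4 groups (adjusted p = 0.0505), in limma without trend and robust options (0.0654), or without Flna-labelled replicate 1 (0.112) or 2 (0.0854) or double mutant replicate 1 (0.0806) or 2 (0.1).

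**Figure D2:**
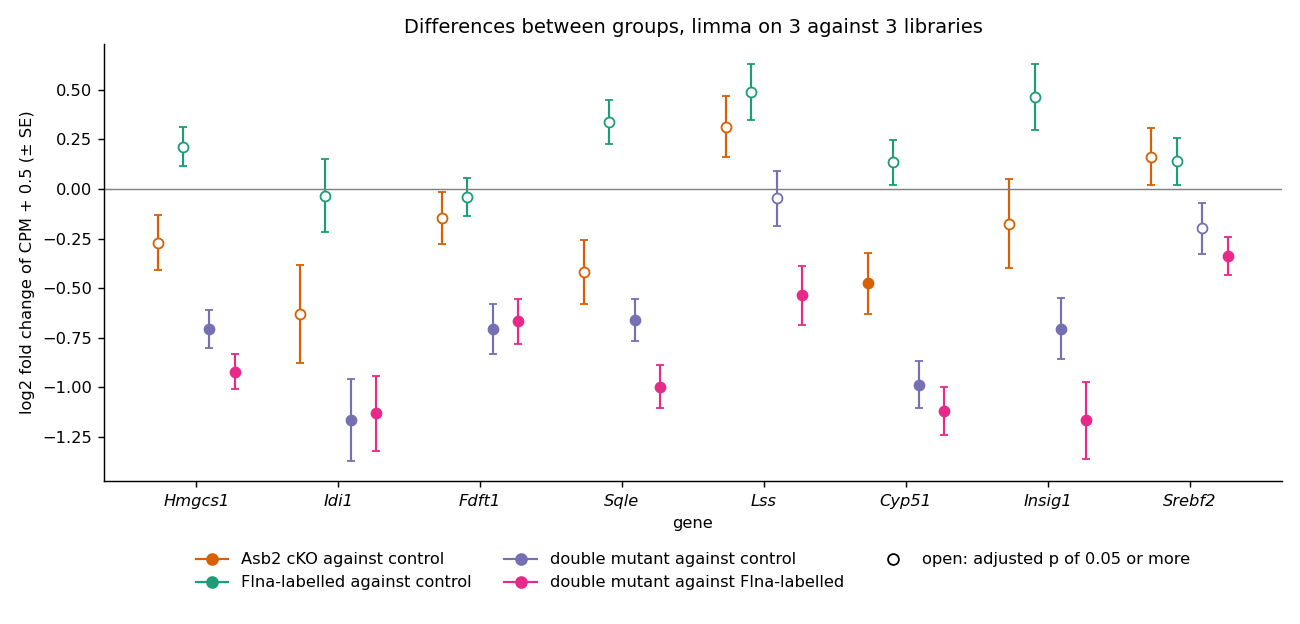
Log2 fold change of CPM + 0.5 with its SE for each gene in 4 comparisons of 3 against 3 libraries; filled points passed an adjusted p of 0.05 in limma. Filled points for the double mutant against the control cover 6 genes (-0.66 to -1.16), against the Flna-labelled group all 8 (-0.34 to -1.17), and the points of the Flna-labelled group against the control are all open.

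Flna-labelled hearts did not differ from the control at the threshold in any of these genes (limma adjusted p 0.292 to 0.953, and 0 of 8 by edgeR and by DESeq2), where 0.0720% of 13891 genes passed in either direction. At an unadjusted p under 0.05, 3 of the 8 were higher, as were 6.31% of all genes. Hmgcs1, Sqle, Insig1 and Lss lay above all controls in all 3 libraries, by 0.21 to 0.49 on the log2 scale, where 9.27% of all genes lay above the controls in this way. The median of the members was 0.18 and that of all genes 0.00.

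Between double mutant and Asb2 cKO hearts, 0 of 8 genes passed (limma adjusted p = 0.999 for each, and 0 by edgeR and by DESeq2), where 0.0214% of 14037 genes passed in either direction, and 5 of 8 were lower at an unadjusted p under 0.05, as were 1.77% of all genes. All 8 values were below 0, from -0.24 for Sqle to -0.56 for Fdft1, with a median of -0.47 against 0.02 for all genes. The double mutant libraries lay below all Asb2 cKO libraries for 6 of the 8, where 3.53% of all genes did so. Asb2 cKO replicate 2 was the lowest of its group for 6 of the members, with 614 CPM summed over the 8 genes beside 793 and 742 in the other 2, and the double mutant libraries had 504 to 563.

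The interaction asked whether the difference between double mutant and Flna-labelled libraries was itself unlike that between Asb2 cKO and control. Its values were below 0 for all 8 genes, from -0.50 for Idi1 and Srebf2 to -0.99 for Insig1, with a median of -0.61. None passed in limma over the 12 libraries (adjusted p 0.403 to 0.566), and 7 of 8 were below 0 at an unadjusted p under 0.05, as were 4.93% of all 13981 genes, of which 0 passed (0% of genes in either direction). By edgeR 0 members passed, and by DESeq2 Hmgcs1 (adjusted p = 0.0185) and Lss (0.0443) did. Hmgcs1 also passed in limma without Asb2 cKO replicate 2 (0.0467).

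The other enzymes of the route were read from a list of 16. In the double mutant 14 of them fell against the control and 0 rose, where 16.7% of all genes fell and 15.6% rose. The median log2 fold change of the 16 was -0.96. Ggps1, which makes a longer isoprenoid used outside sterol synthesis (0.06, limma adjusted p = 0.764), and Lbr, a sterol reductase that is also a nuclear envelope protein (-0.11, limma adjusted p = 0.406), did not pass. Mvk, the mevalonate kinase gene, had 37.0, 27.9 and 31.8 CPM in the controls and 16.6, 14.6 and 15.5 in the double mutant (-1.02 ± 0.14, limma adjusted p = 0.000846). Fdps, the farnesyl diphosphate synthase gene, had 55.7, 47.7 and 41.5 CPM in the controls and 20.5, 24.1 and 18.6 in the double mutant (-1.18 ± 0.15, limma adjusted p = 0.000493). For both genes the groups did not overlap. After lanosterol, the C4-methylsterol oxidase gene Sc4mol, now called Msmo1, fell 2.35-fold and the X-linked dehydrogenase gene Nsdhl 2.33-fold (limma adjusted p = 0.000236 and 0.000173).

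In the Asb2 cKO 7 of the 16 fell against the control, where 10.9% of all genes fell. The median of the 16 was -0.63, beside -0.22 for the 8 members. Mvk was at 22.1, 13.6 and 19.1 CPM in the Asb2 cKO libraries, all below the controls. By rule, those named are Sc4mol (-0.77), Mvk (-0.82), Hsd17b7 (-0.74) and Pmvk (-0.62), with limma adjusted p from 0.0106 to 0.0436, and Nsdhl (-0.63, limma adjusted p = 0.0469). Another, named outside the rule after its value was seen, was Mvd (-0.64, limma adjusted p = 0.047). The count fell to 3 without any 1 control library and to 4 without Asb2 cKO replicate 2, by edgeR or with a gene length trend removed, and it was 3 with the replicate block. In the Flna-labelled group 0 of 16 passed in limma, edgeR and DESeq2, with a median of 0.09. At an unadjusted limma p under 0.05, 2 were higher there, as were 6.31% of all genes. Against the Flna-labelled group the double mutant had 13 of 16 lower, where 16.3% of all genes fell, with a median of -1.07. Against the Asb2 cKO 0 of 16 passed, and 7 were lower at an unadjusted limma p under 0.05, as were 1.77% of all genes.

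**Figure D3:**
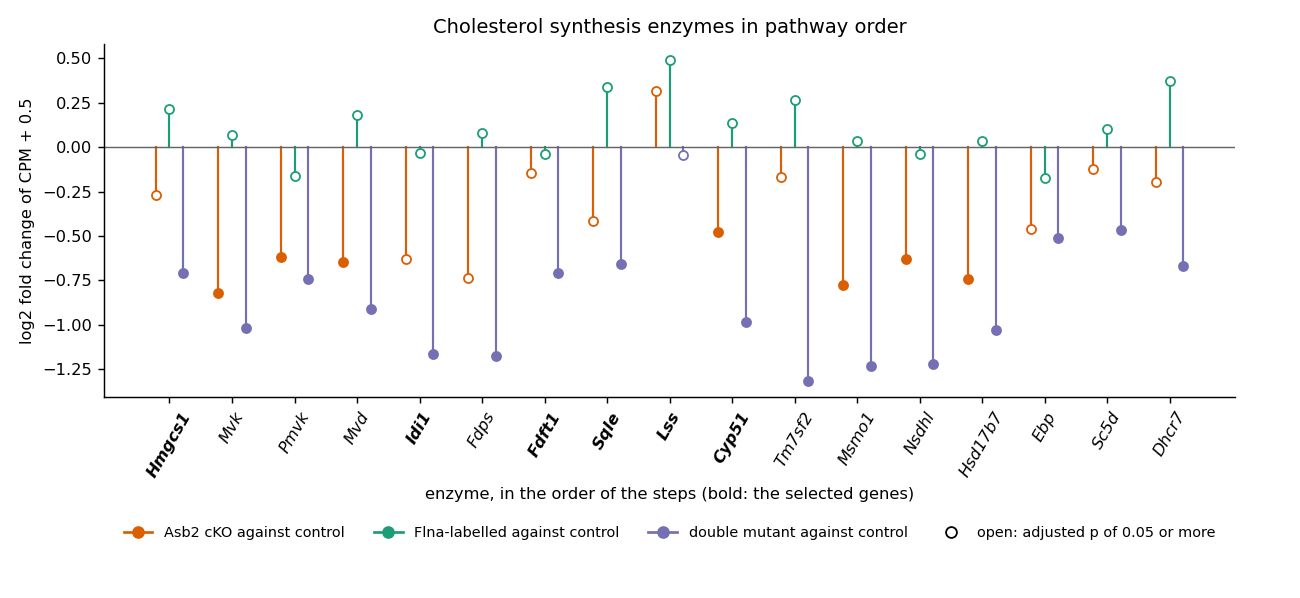
Log2 fold change against the control of 17 cholesterol synthesis enzymes in the order of their steps, for the 3 other groups; filled points passed an adjusted p of 0.05 in limma and bold names are the selected genes. The double mutant values run from -0.05 (Lss) to -1.31 (Tm7sf2), all filled except Lss. Ggps1 and Lbr, which did not pass, are among the listed enzymes not plotted.

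Among 14 genes that control SREBP processing and sterol-dependent degradation, 2 rose and 3 fell in the double mutant, with a median of 0.07. These shares are near those of all genes, of which 15.6% rose and 16.7% fell, so the genes below are given one by one and not as a result about the list. Insig2, a second SCAP anchor, had 24.4, 30.5 and 29.2 CPM in the controls, 34.4, 60.7 and 41.9 in the Asb2 cKO and 36.4, 34.4 and 42.0 in the double mutant. It rose in the double mutant (0.42 ± 0.14, limma adjusted p = 0.0385) and the Asb2 cKO (0.66 ± 0.20, limma adjusted p = 0.0397). Mbtps2, the X-linked gene of the second protease that releases SREBP, rose by 0.75 in both (limma adjusted p = 0.00356 in the double mutant and 0.00899 in the Asb2 cKO). Scap, the escort of SREBP2, fell in the Asb2 cKO (-0.54 ± 0.14, limma adjusted p = 0.0188) and had -0.39 ± 0.14 in the double mutant (limma adjusted p = 0.0545). Ube2g2, a ubiquitin-conjugating enzyme used in sterol-driven degradation, fell by 0.70 and 0.76 in the Asb2 cKO and the double mutant, and Erlin1 fell in the double mutant by 0.46. Srebf1, the gene of the sister factor for fatty acid synthesis, rose in the Asb2 cKO (0.41 ± 0.12, limma adjusted p = 0.036) and had 0.09 ± 0.10 in the double mutant (limma adjusted p = 0.524). Both mutant groups are compared with the same controls. The 5 calls in the double mutant became 3 without control replicate 1, control replicate 3 or double mutant replicate 3, and 2 without double mutant replicate 2.

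Other known SREBP2 targets did not move as one. Tmem97, a sterol-responsive membrane protein gene, had 53.0, 49.0 and 42.0 CPM in the controls, 27.6, 24.0 and 29.1 in the Asb2 cKO, 32.7, 30.7 and 40.7 in the Flna-labelled and 24.3, 32.9 and 27.7 in the double mutant libraries. It fell by 0.76 ± 0.15 in the double mutant and 0.82 ± 0.15 in the Asb2 cKO (limma adjusted p = 0.00414 and 0.005), and all libraries of the other 3 groups lay below the controls. Npc1, which exports cholesterol from lysosomes, rose by 1.01 ± 0.13 in the double mutant and 0.93 ± 0.14 in the Asb2 cKO (limma adjusted p = 0.000469 and 0.0019), and Lpin1, a phosphatidate phosphatase gene, rose by 1.22 and 1.25. Of 10 such targets tested in the double mutant against the control, 2 rose and 2 fell, with a median of -0.10, again near the shares of all genes.

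Genes for sterol export and storage were read as a list of their own. Of 9 tested in the double mutant, 4 rose and 1 fell against the control, where 15.6% of all genes rose and 16.7% fell. The median of the 9 was 0.38. Soat1, which esterifies cholesterol for storage, had 60.1, 74.8 and 82.5 CPM in the controls and 144, 137 and 153 in the double mutant (1.00 ± 0.13, limma adjusted p = 0.000527), and in the Asb2 cKO it rose by 0.93. The exporter genes Abca1 (0.82 ± 0.20, limma adjusted p = 0.0112) and Abcg1 (0.57 ± 0.16, limma adjusted p = 0.0235) and the sterol hydroxylase gene Cyp27a1 (1.03 ± 0.23, limma adjusted p = 0.00779) rose as well. Mylip, a ubiquitin ligase gene, fell by 0.83 (limma adjusted p = 0.00866).

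Fatty acid genes of the SREBP1 branch were read beside them. In the double mutant 6 of 13 fell and 0 rose against the control, where 16.7% of all genes fell and 15.6% rose. The median of the 13 was -0.23. Those that fell included the fatty acid synthase gene Fasn (-0.45), the elongase gene Elovl6 (-0.55) and the desaturase gene Fads2 (-0.75). Me1, which supplies NADPH (-0.67), and the X-linked gene Mid1ip1 (-0.92) fell too, with limma adjusted p from 0.0037 to 0.0108 over these genes. Among these 13, Asb2 cKO hearts had 1 higher (Scd2, 0.50) and 1 lower (Me1, -0.67), a count of 2 that ran from 1 to 4 over the alternatives. Of all genes 10.7% rose and 10.9% fell there, so these calls are not a result about the list. The count was 1 without control replicate 2 or Asb2 cKO replicate 3 and 4 without Asb2 cKO replicate 1. Of 12 genes in the isoprenoid side branches, 6 fell in the double mutant against the control, where 16.7% of all genes fell. The median of the 12 was -0.30. Those that fell included Icmt, which methylates prenylated proteins (-0.61), and the coenzyme Q genes Pdss1 (-0.91) and Coq2 (-0.56), with limma adjusted p from 0.00287 to 0.00831. These 6 calls became 3 without control replicate 2, double mutant replicate 1 or double mutant replicate 2.

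Correlations over the 12 libraries describe how far the members varied together. Each member's correlation with the mean of the other 7 was 0.61 for Lss, 0.64 for Srebf2 and 0.82 to 0.97 for the remaining 6, with Cyp51 and Hmgcs1 highest. The 28 pairs had a median r of 0.72, and 0.44 once group means were removed, from -0.11 to 0.91. All these points share the 12 libraries and their scaling, and the values are descriptions. Among 11497 other genes that averaged 5 CPM or more, the 5 outside the lists above whose pattern was most like the members' mean were Gpsm1 and Incenp (r = 0.97 each), Gm5873 (0.97), Bub1b and Pdxk (0.96 each). Within the lists, Dhcr7, a late enzyme of the route, ranked the first of all genes (r = 0.98).

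Markers of some other cell types differed between the groups, and those of others did not. The 9 markers of liver bud and yolk sac endoderm summed to 342, 9.88 and 344 CPM in the controls, 140.1, 31.4 and 99.8 in the Asb2 cKO, 131, 504 and 187 in the Flna-labelled and 23.5, 39.7 and 42.9 in the double mutant libraries. Alb was at 0 in all double mutant libraries, and Afp was at 0 to 0.65 CPM there. Control replicate 2, with almost none of these transcripts, had 778 CPM summed over the 8 members beside 779.8 and 831 in the other controls. This is 1 library, and the part of endoderm tissue in the members' differences was not tested. In a joint fit of the 5 libraries with Afp under 10 CPM, which leaves 1 control and 1 Asb2 cKO library that are assumed to vary like the double mutant, 5 members fell in the double mutant (Hmgcs1 -0.78, Sqle -0.58, Idi1 -1.12, Fdft1 -0.71 and Cyp51 -1.02, limma adjusted p 0.0109 to 0.0492), and Insig1 had -0.75 (limma adjusted p = 0.0664). In that fit 8 of the 16 other enzymes, 3 of the fatty acid genes, 1 of the isoprenoid genes, 3 of the export genes and 2 of the regulators passed. Of all 14033 genes in that fit 7.07% fell.

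**Figure D4:**
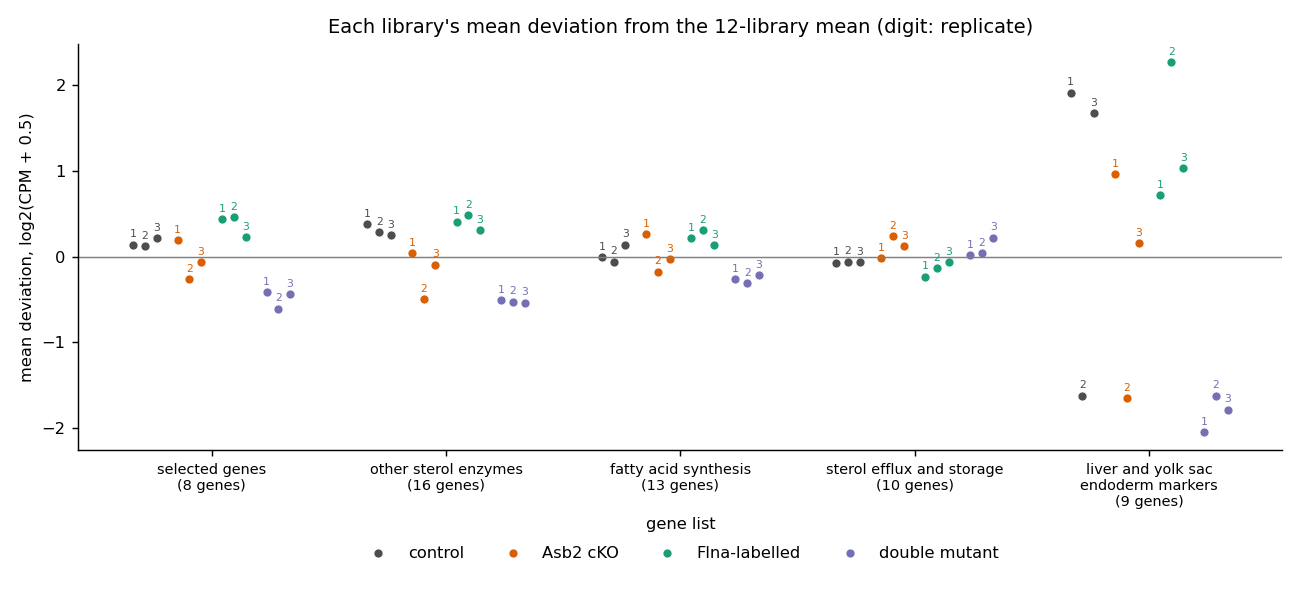
Mean deviation of log2(CPM + 0.5) from the mean of the 12 libraries, per library, for 4 gene lists and the liver and yolk sac endoderm markers; the digit is the replicate. The 8 genes run from -0.61 to -0.42 in the double mutant and from 0.12 to 0.22 in the control, where among the controls the endoderm markers are low in replicate 2 alone.

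Red cell markers (9 genes) summed to 7454 to 8059 CPM in the controls, 505 to 1194 in the Asb2 cKO, 3057 to 3928 in the Flna-labelled and 350.3 to 598 in the double mutant libraries, and all 9 fell in both mutant groups. Of all genes 10.9% fell in the Asb2 cKO and 16.7% in the double mutant. In the Flna-labelled libraries 3 of the 9 red cell markers fell, where 0.0720% of 13891 genes passed in either direction. Of 8 endocardial markers 4 rose in the double mutant (summed 1081 to 1469 CPM beside 779 to 960.4 in the controls), and of 8 pharyngeal markers 2 rose (337 to 562 beside 218 to 288). Of all genes 15.6% rose in the double mutant, and the pharyngeal count is near that share. None of 7 epicardial markers passed there, with control replicate 1 apart from the other controls (summed 53.0 CPM beside 322 and 392), and 1 of 8 cardiomyocyte markers did. With the libraries rescaled without hemoglobin genes, 6 members again fell in the double mutant against the control. The part of red cell, endocardial and pharyngeal markers in the members' differences was not tested further. Xist, which is made by female cells, was at 302 and 106 CPM in 2 controls, 571 and 377 in 2 Asb2 cKO libraries and under 10 CPM in all others. Flna is itself X-linked, and all 6 libraries labelled Flnafl/fl, a genotype with 2 alleles, are among those with Xist under 10 CPM, beside 1 control and 1 Asb2 cKO library. The split runs largely along the Flna label, and it also sets the double mutant libraries apart from 2 of the controls. It touches the X-linked Nsdhl, Mbtps2, Mid1ip1 and Ebp (-0.51 in the double mutant, limma adjusted p = 0.0167). Its part in the differences of these genes and of the members was not tested.

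In the authors' deposited table for the double mutant against the control, the same 6 members had an FDR under 0.05, with log2 fold changes of -0.66 (Sqle) to -1.29 (Idi1). In the authors' deposited table for the Asb2 cKO, Cyp51 was at -0.46 with an FDR of 0.0227 and Sqle at -0.40 with 0.053. In the authors' deposited table that sets double mutant against Asb2 cKO libraries, the smallest FDR of a member was 0.0753, for Fdft1.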

How the data were processed

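Hearts of 12 mouse embryo libraries were measured by RNA sequencing. The submitters' processing notes name STAR, HTSeq, edgeR and the mm10 build; versions, annotation and strand are not given in the sources used here. The authors' expression values, called CPM in their deposited tables, are a signal scaled by 1 factor per library (columns sum to 942334 to 1051801). All (100.0%) were whole multiples of 1 read to within 0.01 read, with 1 read equal to 0.0239 to 0.0380 CPM. The authors also deposited log2 fold changes and mean log2 levels. Their p-value and FDR columns, as deposited, come from their own comparison of groups. The 4 tables agreed to 4.4e-06 CPM and were joined. A further 12 columns were not used. GENCODE M21 (GRCm38) held 99.1% of the identifiers.

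Groups were compared with limma 3.58.1 (trend, robust) in R 4.3.3 on log2(CPM + 0.5), for genes that averaged 1 CPM or more over the compared libraries, with Benjamini-Hochberg adjustment over all genes and a threshold of 0.05. The plan had assumed plain CPM. The interaction used all 12 libraries. As alternatives, edgeR 4.0.16 quasi-likelihood and DESeq2 1.42.0 were run on the recovered reads, beside other pseudocounts, filters, scalings, weights, a joint fit, a replicate block and leaving out each library. A gene length trend (lowess span 0.3) and the joint fit without libraries with Afp at 10 CPM or more were added after seeing the data. On the recovered reads edgeR called 4400 genes for the double mutant against the control, 4291 against the Flna-labelled group, 2837 for the Asb2 cKO and 2 for the Flna-labelled group, and 4 and 0 for the double mutant against the Asb2 cKO and the interaction. Fits were tested on simulated counts. Promoter windows are from RefSeq. Figures were drawn with matplotlib 3.10.9.

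Named are the 8 members, Insig2 and Scap, the X-linked members of the 6 other pathway lists, and up to 5 genes per list and comparison past the threshold with the smallest p, of which the text gives a part. The members, the lists and this rule were chosen with earlier results of these data known. Some genes that the rule takes are not reported here.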

Additional observations from a re-analysis of the deposited data

How the results depend on the processing

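Of 975 alternative log2 fold changes of the 8 genes, 934 kept their direction and side of the threshold, 22 no longer passed, 8 newly passed and 11 changed sign. For the double mutant against the control 6 members fell in all settings but the joint fit without libraries with Afp at 10 CPM or more. In that fit, which leaves 1 control library, fewer passed the threshold. Leaving out each library gave 6 throughout. Against the Flna-labelled group 7 or 8 fell, and 6 to 8 with 1 library left out. For the Asb2 cKO against the control the single call became 0 with a pseudocount of 0.1, no filter, rescaling by the median of ratios or without hemoglobin genes, limma without trend and robust options, the replicate block and edgeR. It became 2 with the gene length trend removed, 3 in the joint fit of all 4 groups, and 0 to 2 with 1 library left out. For the interaction DESeq2 gave 2 members, and leaving out 1 library gave 0 to 1. The cause of these moves was not tested.

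Signs changed near 0, on the log2 scale. In the Flna-labelled group against the control, rescaling without hemoglobin genes gave 0.034 for Idi1, 0.033 for Fdft1, 0.033 for Nsdhl and 0.0079 for Mid1ip1. Library weights gave 0.021 for Idi1 and 0.022 for Mid1ip1, and removing the length trend 0.014 for Idi1, -0.0016 for Scap and 0.018 for Mid1ip1. In the joint fit without libraries with Afp at 10 CPM or more, the double mutant against the control had 0.074 for Lss and 0.0061 for Srebf2, and against the Asb2 cKO 0.015 for Sqle and 0.24 for Ebp. Library weights gave 0.083 for Mbtps2 in the latter comparison and 0.035 for Insig2 in the interaction. With 1 library left out, Insig1 in the Asb2 cKO ranged from -0.45 to 0.062. In the Flna-labelled group Idi1 ranged from -0.10 to 0.049, Nsdhl from -0.12 to 0.0034 and Mid1ip1 from -0.26 to 0.12. In the double mutant Lss ranged from -0.11 to 0.060 against the control, and Ebp from -0.20 to 0.10 and Mbtps2 from -0.10 to 0.094 against the Asb2 cKO. In the interaction Insig2 ranged from -0.22 to 0.18 and Ebp from -0.024 to 0.27.

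The labels give replicate numbers and do not say whether these pair the libraries. With 3 libraries a group, the correlations that follow cannot decide it. Within groups, deviations of same-numbered libraries correlated at -0.51 to 0.51, and all 3 exceeded 0.1 in 0 of 6 pairs of groups. With the replicate block, 0 members passed for the Asb2 cKO, 6 for the double mutant against the control, 8 against the Flna-labelled group and 0 elsewhere. Counts over all genes ran from 1557 to 4231 for the Asb2 cKO (3033 as reported), 2276 to 5448 for the double mutant against the control (4523), 2712 to 6143 against the Flna-labelled group (4394), 0 to 244 for the Flna-labelled group (10), 0 to 26 for the double mutant against the Asb2 cKO (3) and 0 to 71 for the interaction (0). Rescaling without hemoglobin genes turned the split of the double mutant against the Flna-labelled group from 2113 higher and 2281 lower to 1695 and 2816, with the median of all genes at -0.10. With 3 libraries a group, a permutation of 3 against 3 cannot go below p = 0.1, so calls rest on the spread that limma pools over genes.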
